A study of Mus musculus with 191 samples.

Results

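The prefrontal cortex (PFC) of air-breathing control mice was compared between mice taken 120 h after the last inhalation session and mice taken at its end (0 h). The comparison holds 16 of the 191 arrays of the series, 8 at each time, chosen by the tissue, treatment and time of their labels. Every array carried the RNA of a different male C57BL/6J mouse, 10 to 12 weeks old. The chronic intermittent ethanol design ran 4 weekly cycles, each of 4 days with a session of 16 h in the chamber and 8 h outside it. Control mice breathed air and received saline with pyrazole, an inhibitor of alcohol dehydrogenase, at 1 mmol/kg before each session, so that the animals of both times had the same injections, chambers and handling and differed in the time since these ended. Treated mice, used only for reference, had ethanol with the pyrazole and breathed ethanol vapor. Tissue was 5 to 8 punches of 2.0 mm from frozen sections of 300 µm, which hold all cell types of the punched area. The interval of 120 h is a whole number of days, so that both groups were taken at the same nominal time of day, unlike controls taken at 8 h.

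The PFC is a layered cortex of excitatory projection neurons, inhibitory interneurons and glia, and it serves working memory and the control of behavior. Its transcripts vary with the clock, with neuronal activity and with adrenal glucocorticoids. Interferons, released by immune and glial cells, switch on antiviral genes through STAT and IRF transcription factors. An overloaded endoplasmic reticulum switches on its chaperones through the unfolded protein response. Oligodendrocytes, the cells that make myelin, arise from dividing precursors throughout adult life and pass through short-lived immature stages marked by genes such as Gpr17, Bcas1 and Enpp6.

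Levels are probe intensities of an Illumina MouseRef-8 array on the log2 scale after quantile normalization, which gives all arrays the same distribution. A difference of 1 on this scale is a doubling, and levels of different probes are not comparable with each other. Differences are 120 h minus 0 h and carry the standard error (SE) of the fit. Adjusted p-values are those of limma with Benjamini-Hochberg adjustment over 12835 probes, and a probe or gene is said to rise or fall only where that value was 0.05 or lower. The labels do not say which mice shared a cage, a cohort or a BeadChip, and the deposited files give no chip position for an array. Time and array batch therefore cannot be told apart beyond the counter-balanced hybridization that the study's methods describe.

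Median raw intensity did not separate the groups, at 111.85 to 122.66 at 0 h and 113.68 to 123.27 at 120 h (exact permutation test, two-sided, p = 0.989). The arrays at 120 h detected fewer probes, 13577 to 14099 against 14285 to 14659 at 0 h, with no overlap (exact permutation test, two-sided, p = 0.0001554, the smallest that 8 against 8 allow). Before normalization the median log2 intensity of the tested probes was lower by 0.17 at 120 h, so that the sign of small shared shifts depends on the scaling, as given below. The 17 measured genes of excitatory cortical neurons had a summed intensity of 15595 to 16415 at 0 h and 15222 to 16166 at 120 h, with overlap. This sum was compared with no other tissue, so it does not show where the punches lay. The 6 measured genes of the olfactory bulb, a tissue in front of the punched area, ran from 954.91 to 1816.3 at 0 h and from 1258.9 to 3221 at 120 h.

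Of 12835 probes, 2999 passed (23.4%), with 1481 higher (11.5%) and 1518 lower (11.8%) at 120 h. A first principal component that held 33.3% of the variance separated the times, at -11.3 to -3.19 for 0 h and 2.44 to 12.5 for 120 h. Within each time it also separated the first 4 deposited columns of the group from the last 4. These lay at -11.3 to -7.97 and -5.82 to -3.19 at 0 h, and at 9.03 to 12.5 and 2.44 to 4.56 at 120 h. What the column order stands for was not tested. Most differences were small. The median size of a probe that passed was 0.17, and 58 of these probes differed by 0.5 or more. Values of the 2 times did not overlap for 195 probes that were higher (1.52%) and 197 that were lower (1.53%). With 1 probe for each of 8881 genes, 1139 genes were higher (12.8%) and 951 lower (10.7%), and 146 (1.64%) and 133 (1.5%) did not overlap. These per-gene shares are the background for the gene lists below. Without any scaling the median difference over the tested probes was -0.16, and 176 probes were called higher against 7485 lower. With the mean log2 level of the olfactory bulb genes as a covariate, 613 probes passed, 291 higher and 322 lower. That level itself differed between the times, and how far it and the time can be separated was not tested.

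**Figure D1:**
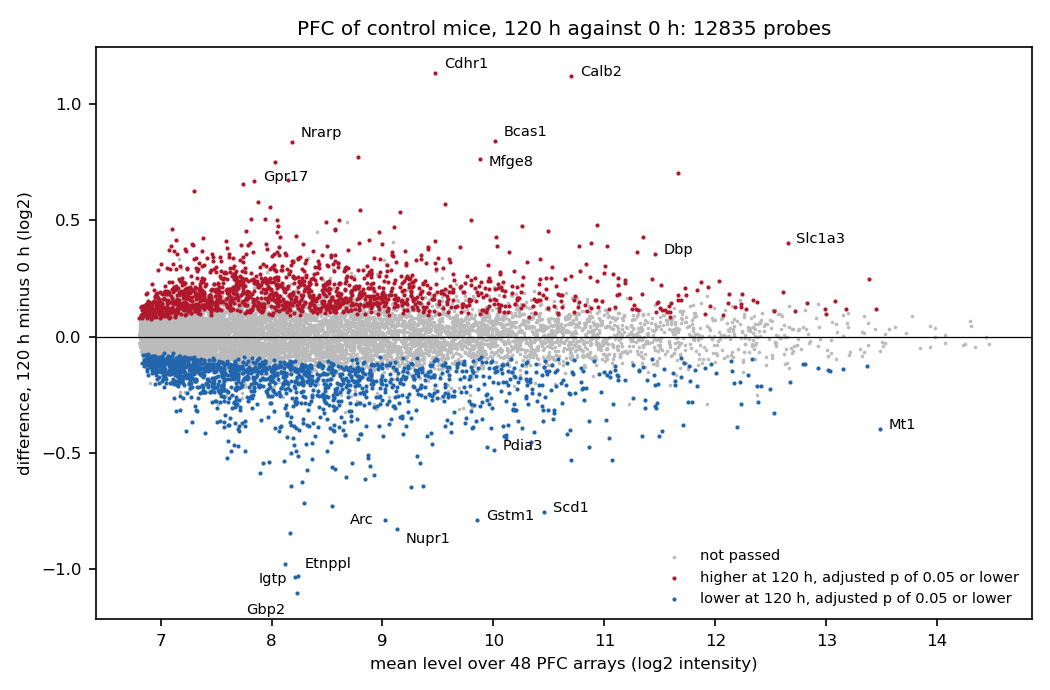
Difference between 120 h and 0 h (log2, vertical axis) against the mean level over 48 PFC arrays (log2 intensity, horizontal axis) for 12835 probes, with 1481 higher in red, 1518 lower in blue and the rest in grey. Most colored points lie within 0.5 of the zero line, and the named genes are among the few outside it or at high level.

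The most marked fall by function was that of interferon-induced genes. Of 15 measured genes of this list, 11 fell, none rose and all 15 differences were negative, with a median of -0.37 against 0.01 over all genes, and 6 of the 11 did not overlap. The largest falls were in the GTPases that interferon-gamma induces against intracellular pathogens. Gbp2, a guanylate-binding protein, lay at 7.95 to 9.68 at 0 h with a median of 8.37, and at 7.19 to 7.58 at 120 h with a median of 7.41. All 8 mice at 120 h were below all 8 at 0 h, a 2.15-fold lower level (log2 difference -1.10, SE 0.18, adjusted p = 0.00039). Igtp, an immunity-related GTPase, ran from 7.88 to 9.67 (median 8.23) at 0 h and from 7.10 to 7.51 (median 7.36) at 120 h, again without overlap (-1.03, SE 0.18, adjusted p = 0.00093). Irgm2, of the same family, was not on the list and fell with it, from 7.89 to 9.31 (median 8.17) to 7.04 to 7.47 (median 7.32). The difference was -0.98 (SE 0.15, adjusted p = 0.00029).

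The promoters of 3 of these genes are printed because they carry the interferon-stimulated response element, searched on both strands as GAAA, 2 bases of any kind and GAAA in the RefSeq sequence from 250 bases before to 50 after the start of each gene. It was present in 943 of 27025 promoters (3.49%), in 9 of the 13 list members with a promoter sequence, in 6 of the 9 of these that fell and in 3 of the 4 that did not pass. The stretches are 160 bases of assembly GRCm38.p6, and the match is in capitals. They lie at chr3:142620529-142620688 on the plus strand for Gbp2, chr11:58199446-58199605 on the plus strand for Igtp and chr19:34583315-34583474 on the plus strand for Ifit3, which holds 2 matches.
Gbp2: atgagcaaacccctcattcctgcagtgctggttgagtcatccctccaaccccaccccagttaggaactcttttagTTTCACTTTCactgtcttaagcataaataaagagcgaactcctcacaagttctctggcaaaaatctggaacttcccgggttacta
Igtp: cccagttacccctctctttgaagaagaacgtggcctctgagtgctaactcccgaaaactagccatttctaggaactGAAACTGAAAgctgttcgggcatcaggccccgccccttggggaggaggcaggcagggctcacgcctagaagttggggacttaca
Ifit3: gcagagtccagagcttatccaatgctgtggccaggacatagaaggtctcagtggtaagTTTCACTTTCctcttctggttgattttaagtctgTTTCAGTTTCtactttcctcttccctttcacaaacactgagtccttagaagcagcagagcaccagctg

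The other members fell less. Irf9, the DNA-binding subunit of the factor that reads this element, had levels of 7.53 to 7.95 at 0 h (median 7.61) and 7.16 to 7.41 at 120 h (median 7.29). The groups did not overlap, and the difference was -0.38 (SE 0.05, adjusted p = 0.00012), the smallest p of the list. Lgals3bp, a secreted glycoprotein, lay at 8.00 to 8.90 (median 8.25) and then at 7.49 to 7.97 (median 7.84), also without overlap (-0.53, SE 0.10, adjusted p = 0.0015). Ifit3, which helps to sequester viral RNA, fell by 0.52 (SE 0.11, adjusted p = 0.0026), from 8.51 to 9.49 (median 8.83) to 8.10 to 8.58 (median 8.34), where a part of the values overlapped. Gbp3, Ifitm3, Rsad2, Oasl2 and Ifi27 fell by 0.54, 0.54, 0.24, 0.37 and 0.28, and were named after their values were seen, to complete the list. Stat2, Isg15, Ifit2 and Irgm1 did not pass.

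The summed intensity of the 15 genes was 6814.2 to 11196 at 0 h, 7208.4 to 10192 at 8 h and 6371.1 to 7509.5 at 120 h. The highest array at 0 h was that of mouse 26, and 11 genes fell when it was left out, with a median of -0.27. Over all probes, 477 (3.72%) differed between 8 and 0 h and 2986 (23.3%) between 120 and 8 h, in 1 fit of the 3 control groups. At 8 h none of the 15 had changed from 0 h in either direction, where 2.5% of genes were higher and 1.5% lower, and Gbp2 differed between 120 and 8 h by -1.02 (SE 0.21, adjusted p = 0.00094). Of 9 measured genes of MHC class I antigen presentation and the immunoproteasome, 5 fell and none rose. H2-T23, a non-classical class I heavy chain, was at 8.26 to 9.29 (median 8.64) at 0 h and at 8.02 to 8.33 (median 8.15) at 120 h, with a slight overlap (-0.54, SE 0.10, adjusted p = 0.00085). B2m, the light chain of all class I molecules, fell by 0.43 (SE 0.12, adjusted p = 0.017) and Psmb9, a subunit of the immunoproteasome, by 0.36 (SE 0.11, adjusted p = 0.026), both with overlap. Cd74, the invariant chain of MHC class II, fell by 0.71 (SE 0.17, adjusted p = 0.0070), from 7.43 to 8.90 (median 8.10) to 7.11 to 7.65 (median 7.39). As these are whole punches, fewer cells of a type and less RNA in each cell cannot be told apart, here and below.

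Chaperones of the endoplasmic reticulum fell or did not pass. Of 14 measured genes, 7 fell and none rose, and 6 of the 7 did not overlap. Pdia4, a protein disulfide isomerase, was at 8.15 to 8.42 at 0 h (median 8.28), at 8.10 to 8.33 at 8 h (median 8.27) and at 7.66 to 7.86 at 120 h (median 7.75). The mice at 0 and 8 h shared a range that lay wholly above that at 120 h, and the difference of -0.53 (SE 0.04, adjusted p = 2.3e-07) was the third smallest p of all probes. Its relative Pdia3, which folds glycoproteins with calreticulin, ran from 10.09 to 10.37 (median 10.18) at 0 h and from 9.50 to 9.82 (median 9.72) at 120 h, without overlap (-0.49, SE 0.05, adjusted p = 3.0e-06). Creld2, secreted under reticulum stress, fell by 0.38 (SE 0.04, adjusted p = 1.9e-05) and Dnajc3, a co-chaperone that restrains the kinase PERK, by 0.37 (SE 0.04, adjusted p = 3.1e-05). Sel1l, the adapter of the ubiquitin ligase that clears misfolded proteins, Calr, which is calreticulin, and Hsp90b1, the HSP90 of the reticulum, fell by 0.25, 0.38 and 0.28. They were named after their values were seen. Hspa5, Xbp1, Hyou1, Herpud1, Dnajb9, Syvn1 and Pdia6 did not pass.

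The promoters of 4 of the genes that fell are shown because they hold the endoplasmic reticulum stress response element, searched on both strands in the same windows as CCAAT, 9 bases of any kind and CCACG. It was found in 35 of 27025 promoters (0.13%), in 7 of 13 list members, namely 4 of the 7 that fell and 3 of the 6 that did not pass. The stretches lie at chr15:88819449-88819608 on the plus strand for Creld2, chr14:118937756-118937915 on the plus strand for Dnajc3, chr8:84847005-84847164 on the minus strand for Calr and chr10:86705515-86705674 on the minus strand for Hsp90b1, which holds 2 matches, in capitals.
Creld2: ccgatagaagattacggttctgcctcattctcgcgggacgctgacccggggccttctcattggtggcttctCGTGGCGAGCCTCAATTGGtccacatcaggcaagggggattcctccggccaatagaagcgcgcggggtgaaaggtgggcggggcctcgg
Dnajc3: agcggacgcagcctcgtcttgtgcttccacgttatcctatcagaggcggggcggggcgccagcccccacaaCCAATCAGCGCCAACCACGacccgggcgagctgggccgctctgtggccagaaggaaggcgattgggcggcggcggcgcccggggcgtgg
Calr: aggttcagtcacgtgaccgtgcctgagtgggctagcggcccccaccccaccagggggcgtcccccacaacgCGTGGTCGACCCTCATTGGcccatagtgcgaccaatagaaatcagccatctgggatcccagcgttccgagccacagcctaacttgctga
Hsp90b1: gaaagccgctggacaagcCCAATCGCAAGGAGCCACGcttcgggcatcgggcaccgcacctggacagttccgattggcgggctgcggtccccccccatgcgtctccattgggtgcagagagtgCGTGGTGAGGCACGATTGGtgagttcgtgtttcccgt

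The summed intensity of the 14 chaperones was 11039 to 12086 at 0 h, 10677 to 11994 at 8 h and 9590.3 to 10739 at 120 h, so that the 2 ends of the interval did not overlap. Genes of the integrated stress response, which phosphorylated eIF2 switches on through ATF4, did not move one way. Of 16 measured, 2 rose and 2 fell (12.5% each), near the 12.8% and 10.7% of all genes. Chac1, which degrades glutathione, rose by 0.37 (SE 0.05, adjusted p = 6.0e-05), from 8.24 to 8.57 (median 8.52) to 8.78 to 9.02 (median 8.82), without overlap. Its difference was 0.13 without scaling and did not pass. Atf5, a transcription factor of the same response, fell by 0.51 (SE 0.09, adjusted p = 0.00071), with overlap.

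**Figure D2:**
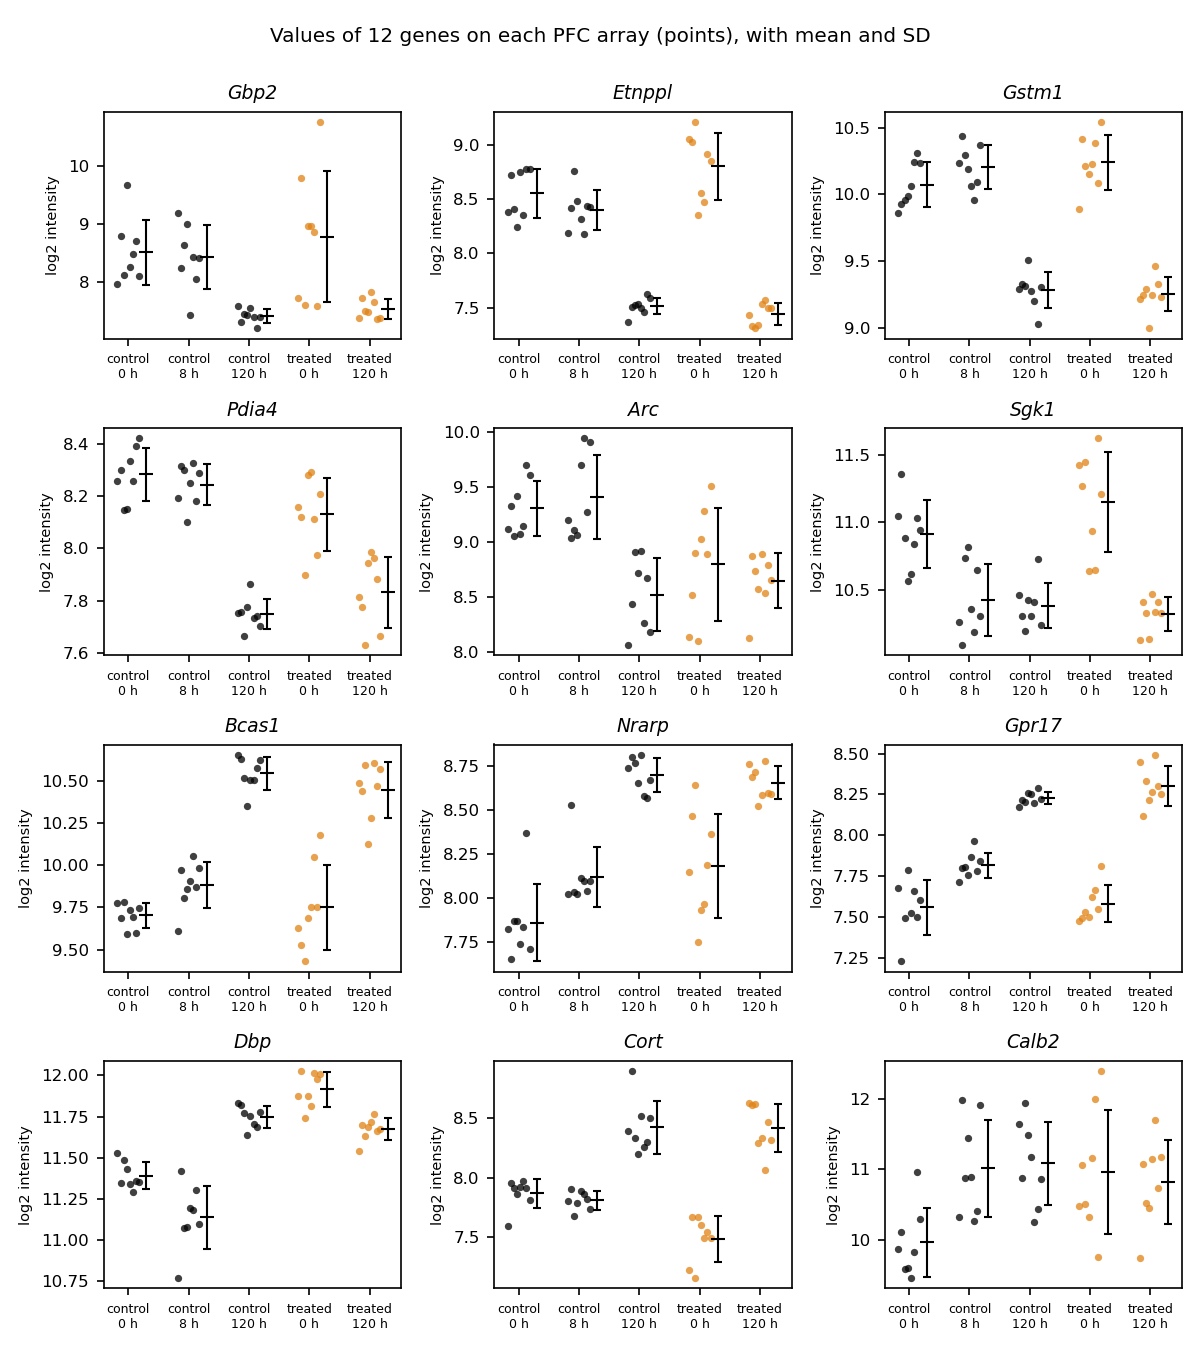
Log2 intensity (vertical axis) of 12 genes on each PFC array, by group (control at 0, 8 and 120 h, treated at 0 and 120 h), with 8 points a group and the mean with SD beside them. In controls Bcas1, Nrarp, Gpr17, Dbp and Cort at 120 h lie above all values at 0 h, and Gbp2, Etnppl, Gstm1, Pdia4 and Arc below them, while Sgk1 and Calb2 overlap and have 8 h levels near those at 120 h.

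Several metabolic and detoxifying enzymes were among the steepest falls. Etnppl, an enzyme of astrocytes that breaks down phosphoethanolamine, was at 8.24 to 8.78 at 0 h (median 8.56), at 8.17 to 8.75 at 8 h (median 8.42) and at 7.37 to 7.62 at 120 h (median 7.52). Levels at 120 h were below every mouse at the earlier times, 2.05-fold lower than at 0 h (-1.03, SE 0.07, adjusted p = 1.4e-07). Gstm1, a glutathione transferase, ran from 9.86 to 10.31 (median 10.02) at 0 h and from 9.03 to 9.51 (median 9.30) at 120 h, with no overlap (-0.79, SE 0.07, adjusted p = 7.3e-07). Scd1, which makes monounsaturated fatty acids, ran from 10.43 to 10.97 (median 10.82) and from 9.88 to 10.11 (median 10.01), again apart (-0.75, SE 0.07, adjusted p = 3.0e-06). Rida, which removes reactive enamines and imines, fell by 0.64 (SE 0.05, adjusted p = 4.3e-07), with all 3 of its probes lower. Nupr1, a small nuclear protein induced by cell stress, fell from 9.29 to 9.66 (median 9.43) to 8.39 to 8.93 (median 8.62), a difference of -0.82 (SE 0.06, adjusted p = 2.3e-07). For Nupr1 the level at 8 h, 8.99 to 9.35 (median 9.19), was already lower than at 0 h (-0.24, adjusted p = 0.031), and it was lower again at 120 h than at 8 h (-0.58, adjusted p = 4.1e-07).

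Among redox genes regulated by NRF2, 5 of 13 fell and 1 rose. Besides Gstm1, these were Gclm, the modifier subunit of the enzyme that makes glutathione, which fell from 8.26 to 8.75 (median 8.38) to 7.87 to 8.02 (median 7.95) without overlap (-0.46, SE 0.06, adjusted p = 3.2e-05), and Srxn1, which repairs peroxiredoxins (-0.26, SE 0.06, adjusted p = 0.0042). Txn1, thioredoxin, rose by 0.35 (SE 0.06, adjusted p = 0.00075), but it was at 0.15 without scaling and did not pass. The metallothionein Mt1, a metal-binding protein abundant in astrocytes, fell from 13.54 to 13.78 (median 13.61) to 13.06 to 13.42 (median 13.24), without overlap (-0.40, SE 0.05, adjusted p = 7.9e-05), while the values of Mt2 and Mt3 did not pass. None of 6 measured genes of alcohol and aldehyde oxidation, the pathway that pyrazole blocks at its first step, passed in either direction, and the largest of them differed by -0.05.

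Of 22 measured genes that glucocorticoids induce, 9 fell, none rose and 18 differences were negative, with a median of -0.12. Fam107a, an actin-associated protein, fell most clearly, from 11.02 to 11.40 (median 11.26) to 10.60 to 10.88 (median 10.71), without overlap (-0.53, SE 0.05, adjusted p = 2.2e-06). Sgk1, a kinase that corticosterone induces in glia and neurons, ran from 10.56 to 11.36 (median 10.91) at 0 h, from 10.09 to 10.81 (median 10.33) at 8 h and from 10.19 to 10.72 (median 10.36) at 120 h. It was lower at 8 h (-0.49, SE 0.11, adjusted p = 0.011) and at 120 h (-0.53, SE 0.09, adjusted p = 0.00088) than at 0 h, and the values at 8 and 120 h differed by -0.04 (adjusted p = 0.81). Tsc22d3, the leucine zipper protein GILZ, had the same order, with -0.41 at 8 h (adjusted p = 0.011) and -0.39 at 120 h (adjusted p = 0.011), and was named after its values were seen. Sult1a1, a sulfotransferase, fell by 0.73 (SE 0.11, adjusted p = 0.00034) from 8.36 to 9.38 (median 8.64) to 7.73 to 8.37 (median 7.98), touching in 1 pair of values. Plin4, a lipid-droplet coat protein also named after its values were seen, had its highest value of 8.19 in mouse 18 at 0 h and fell by 0.40 (adjusted p = 0.036). Fkbp5, Klf9, Ddit4 and Nfkbia, among the best known targets of the receptor, did not pass.

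Immediate early genes, which neurons transcribe within minutes of activity, were lower at 120 h. Of 18 measured, 8 fell and 1 rose. Arc, which acts on glutamate receptors at active synapses, was at 9.06 to 9.70 at 0 h (median 9.24), at 9.04 to 9.95 at 8 h (median 9.24) and at 8.07 to 8.92 at 120 h (median 8.55). All mice at 120 h lay below all at 0 h (-0.79, SE 0.13, adjusted p = 0.00045), the only member without overlap. Egr2 and Junb, transcription factors, fell by 0.52 (SE 0.09, adjusted p = 0.00073) and 0.49 (SE 0.09, adjusted p = 0.0015). Dusp1, a phosphatase of MAP kinases that glucocorticoids induce too, fell by 0.39 (SE 0.07, adjusted p = 0.0014). Fos, at 8.22 to 8.82 at 0 h and 7.54 to 8.73 at 120 h, fell by 0.46 (SE 0.15, adjusted p = 0.033). Fos, Fosb, Egr4 and Dusp6 were named after their values were seen. Gadd45g, a stress sensor that lowers cell growth, rose by 0.33 (SE 0.07, adjusted p = 0.0021), while Egr1, Npas4, Homer1, Egr3 and Nr4a2 did not pass. Gadd45g was at 0.04 without scaling and did not pass.

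Clock genes moved in 2 directions although the nominal time of day was equal. Of 18 measured, 3 rose and 5 fell. The 3 that rose are targets of the CLOCK:BMAL1 activator, but Nr1d1, Per2, Per3, Tef and Cry2 of the same list did not pass. Dbp, a transcription factor with a strong daily rhythm, was at 11.29 to 11.53 at 0 h (median 11.36), at 10.77 to 11.42 at 8 h (median 11.14) and at 11.64 to 11.84 at 120 h (median 11.76). The groups at 0 and 120 h did not overlap (0.36, SE 0.04, adjusted p = 8.7e-06), and the 8 h mice, from another time of day, were lowest. Ciart, a repressor within the clock, rose by 0.34 (SE 0.06, adjusted p = 0.00071) and Nr1d2, the receptor REV-ERB-beta, by 0.21 (SE 0.06, adjusted p = 0.025). Those that fell included Arntl, which encodes BMAL1 (-0.19, SE 0.03, adjusted p = 0.0011), and its partner's relative Npas2 (-0.23, SE 0.03, adjusted p = 0.00017, without overlap). Bhlhe40 and Per1, which light, activity and glucocorticoids also induce, fell by 0.36 (SE 0.06, adjusted p = 0.00099) and 0.28 (SE 0.06, adjusted p = 0.0021). For Ciart 1 of its 2 probes passed. Without scaling Dbp and Ciart were at 0.01 and 0.11 and did not pass, and Nr1d2 was at -0.04.

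**Figure D3:**
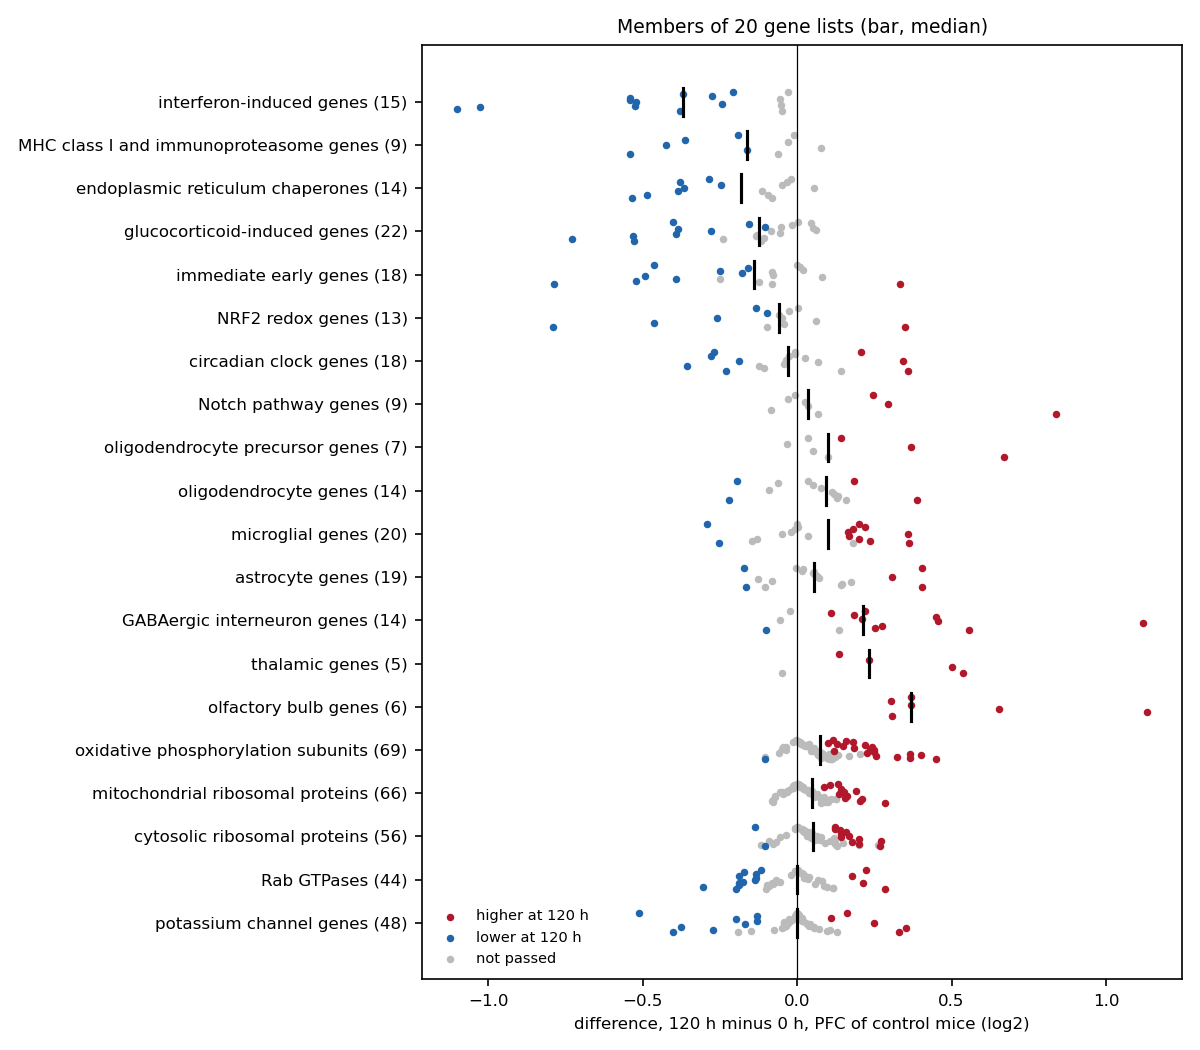
Difference between 120 h and 0 h (log2, horizontal axis) of each measured member of 20 gene lists in the PFC of control mice, with members that rose in red, those that fell in blue and the rest in grey, a bar at the median and the number measured in parentheses. All 15 interferon-induced genes lie below 0, and all 6 olfactory bulb genes above it.

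Single genes of the oligodendrocyte lineage were among the clearest rises. Bcas1, found in oligodendrocytes that begin to myelinate and on neither lineage list, had the smallest p of all probes. It was at 9.59 to 9.78 at 0 h (median 9.72), at 9.61 to 10.05 at 8 h (median 9.89) and at 10.35 to 10.65 at 120 h (median 10.54). The mice at 120 h were far above both earlier groups, 1.79-fold over 0 h (0.84, SE 0.04, adjusted p = 4.5e-10). Gpr17, a receptor of committed precursors, ran from 7.23 to 7.79 (median 7.56) at 0 h, from 7.72 to 7.97 (median 7.80) at 8 h and from 8.17 to 8.29 (median 8.22) at 120 h. It rose in both steps, by 0.26 at 8 h (adjusted p = 0.0070) and by 0.67 at 120 h (SE 0.06, adjusted p = 5.1e-07). Enpp6, of newly formed oligodendrocytes, rose by 0.37 (SE 0.04, adjusted p = 5.25e-06), from 6.95 to 7.08 (median 7.01) to 7.24 to 7.55 (median 7.38). Pdgfra, the growth factor receptor of dividing precursors, rose by 0.14 (SE 0.04, adjusted p = 0.020) but was at -0.07 without scaling, and Cspg4, Neu4, Tnr and Bmp4 of that list did not pass, which made 3 of 7. Summed over the 7 genes, intensities were 1049.4 to 1161.9 at 0 h, 1114.4 to 1177.9 at 8 h and 1258.6 to 1371.3 at 120 h, with no overlap between the first and the last. This sum includes Gpr17 and Enpp6, whose rises are given above, and the share of each gene in it was not tested.

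Of 14 measured oligodendrocyte genes 2 rose and 2 fell (14.3% each), near the 12.8% and 10.7% of all genes. Mag, a glycoprotein of the inner myelin wrap, rose from 9.24 to 9.36 (median 9.28) to 9.44 to 9.82 (median 9.71), without overlap (0.39, SE 0.04, adjusted p = 9.1e-06). Its difference was 0.10 without scaling and did not pass. Mobp, a late myelin protein, went the other way, from 8.07 to 9.65 (median 8.30) to 7.68 to 7.93 (median 7.80). Its difference of -0.64 (SE 0.16, adjusted p = 0.0090) was that of the probe with the smallest p, and 2 of its 3 probes fell. The Notch pathway, which holds precursors and astrocytes in their state, had 3 of 9 measured genes higher and none lower. Nrarp, a target and brake of Notch, rose from 7.66 to 8.37 (median 7.83) to 8.57 to 8.81 (median 8.70), without overlap (0.84, SE 0.08, adjusted p = 1.1e-06). Hes5, the transcription factor that Notch induces, rose by 0.29 (SE 0.05, adjusted p = 0.00082) and Notch1 by 0.25 (SE 0.06, adjusted p = 0.0074), while Hes1, Hey1 and Hey2 did not pass. Notch1 was at 0.06 without scaling and did not pass.

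Other large rises were in glia and secreted or surface proteins. Mfge8, which bridges phagocytes to dying cells, ran from 8.91 to 9.90 (median 9.72) at 0 h and from 10.25 to 10.57 (median 10.39) at 120 h, without overlap (0.76, SE 0.10, adjusted p = 6.6e-05). Ednrb, the endothelin B receptor of astrocytes, rose by 0.57 (SE 0.07, adjusted p = 6.0e-05) and Slc1a3, the astrocytic glutamate transporter GLAST, by 0.40 (SE 0.07, adjusted p = 0.0011), both without overlap. For Ednrb 2 of its 3 probes passed, and Slc1a3 was at 0.05 without scaling and did not pass. Rgma, a guidance molecule, rose by 0.50 (SE 0.04, adjusted p = 4.3e-07). Aqp1, a water channel of the choroid plexus, rose by 0.63 (SE 0.12, adjusted p = 0.0014), and Kl and Rarres2, the other 2 measured markers of that epithelium, did not pass. Xlr4a, an X-linked gene, was at 6.89 to 8.36 at 0 h, 7.37 to 9.34 at 8 h and 7.40 to 8.51 at 120 h, and was higher at 8 h (1.04, adjusted p = 0.021) and at 120 h (0.75, SE 0.18, adjusted p = 0.0070).

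Of 19 astrocyte genes 3 rose (15.8%) and 2 fell (10.5%), near the 12.8% and 10.7% of all genes. Apoe was among those that rose (0.40, SE 0.08, adjusted p = 0.0020), but it was at 0.06 without scaling and did not pass. Of 20 microglial genes 9 rose and 2 fell. With median scaling 9 rose and 4 fell, but without scaling 1 rose and 6 fell. Trem2, a lipid receptor, rose from 7.49 to 7.91 (median 7.77) to 8.01 to 8.18 (median 8.13), the only microglial gene without overlap (0.36, SE 0.05, adjusted p = 6.3e-05). P2ry12, a receptor of resting microglia named after its values were seen, rose by 0.36 (SE 0.09, adjusted p = 0.011), whereas Cx3cr1, the fractalkine receptor, fell by 0.29 (SE 0.08, adjusted p = 0.017) and Fcgr3, an Fc receptor, by 0.25 (SE 0.05, adjusted p = 0.0018). P2ry12 was at 0.21 without scaling and did not pass. Summed microglial intensities overlapped widely, at 5227.4 to 7217.3 and 5833.4 to 6620.2.

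Of 14 genes of GABAergic interneurons, 10 rose and 1 fell under quantile normalization, 5 rose and 2 fell under median scaling, and 2 rose and 6 fell without scaling. Cort, the neuropeptide cortistatin of cortical interneurons, was at 7.59 to 7.98 at 0 h (median 7.92), at 7.68 to 7.91 at 8 h (median 7.81) and at 8.20 to 8.90 at 120 h (median 8.36). It did not overlap with either earlier group (0.56, SE 0.08, adjusted p = 0.00015). Npy, another interneuron peptide, rose from 10.35 to 10.58 (median 10.44) to 10.60 to 10.88 (median 10.66), without overlap (0.25, SE 0.04, adjusted p = 0.00072), a rise that was not seen without scaling, at -0.08. Calb2, which encodes calretinin, had another course, with 9.46 to 10.96 (median 9.85) at 0 h, 10.26 to 11.97 (median 10.88) at 8 h and 10.26 to 11.94 (median 11.02) at 120 h. Its rise of 1.12 (SE 0.23, adjusted p = 0.0025) was of the same size at 8 h (1.05, adjusted p = 0.026), and the groups at 0 and 120 h overlapped. Reln, Dlx1, Gad1 and Slc32a1, which encode reelin, a transcription factor, the GABA-making enzyme and the vesicular GABA transporter, rose by 0.46, 0.45, 0.22 and 0.28, of which Gad1 and Slc32a1 were at -0.11 and -0.06 without scaling, and Pvalb, Sst and Vip did not pass. The first 3 of these 4 were named after their values were seen. Reln and Dlx1 were at 0.13 and 0.19 without scaling and did not pass.

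Calretinin, reelin and the Dlx factors are also made in the olfactory bulb, and bulb markers moved with them. All 6 measured bulb genes rose, with a median of 0.37. Cdhr1, a cadherin of mitral and tufted cells, was at 7.96 to 9.68 at 0 h (median 8.53), at 9.01 to 11.18 at 8 h (median 9.66) and at 8.72 to 10.83 at 120 h (median 9.76). Its rise of 1.13 (SE 0.28, adjusted p = 0.0071), the largest of all genes, came with overlap and a spread within each group as wide as the shift. Doc2g, a synaptic protein of the same cells, rose by 0.66 (SE 0.17, adjusted p = 0.011), Sp8, a factor of bulb interneurons, by 0.37 (SE 0.10, adjusted p = 0.012), Dcx, of migrating neuroblasts, by 0.31 (SE 0.06, adjusted p = 0.0019). Eomes and Th, of mitral cells and dopaminergic periglomerular cells, rose by 0.31 and 0.37 and were named after their values were seen. Trh and Ly6g6e, among the 12 largest rises and in no list, rose by 0.67 (SE 0.20, adjusted p = 0.020) and 0.58 (SE 0.19, adjusted p = 0.032). Dcx, Th and Ly6g6e were at 0.105, 0.299 and 0.432 without scaling and did not pass. With the mean log2 level of the bulb genes as a covariate, Doc2g, Trh, Ly6g6e, Sp8, Dlx1, Eomes and Th changed sign to between -0.12 and -0.02, and Calb2 and Cdhr1 did not pass. Cdhr1, Doc2g, Sp8, Eomes and Th are themselves part of that mean, which takes out their difference by construction.

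Of 5 measured thalamic genes, 4 rose. Slc17a6, the vesicular glutamate transporter of thalamic neurons, was at 8.54 to 9.12 at 0 h (median 8.81), 9.08 to 9.74 at 8 h (median 9.23) and 9.01 to 9.73 at 120 h (median 9.39), with a rise of 0.54 (SE 0.09, adjusted p = 0.00056). Ntng1, a guidance protein of thalamic axons, rose by 0.50 (SE 0.10, adjusted p = 0.0021), Cacna1g, a T-type calcium channel, by 0.23 (SE 0.05, adjusted p = 0.0031), and Tcf7l2, a transcription factor, by 0.14 (SE 0.04, adjusted p = 0.016). Their summed level was 1242.8 to 1452.5 at 0 h, 1553 to 2098.4 at 8 h and 1527.8 to 2097 at 120 h, so that 0 h stood apart from both later times. Without scaling Cacna1g and Tcf7l2 were at 0.02 and 0.05 and did not pass, and with the bulb covariate none of the 5 passed. In these genes the values at 8 and 120 h were alike, with differences of 0.07 for Calb2, -0.07 for Cdhr1, 0.03 for Slc17a6 and -0.11 for Ntng1 between the later times, all short of the threshold (adjusted p from 0.59 to 0.90). The part that the place of the punches had in these values was not tested.

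**Figure D4:**
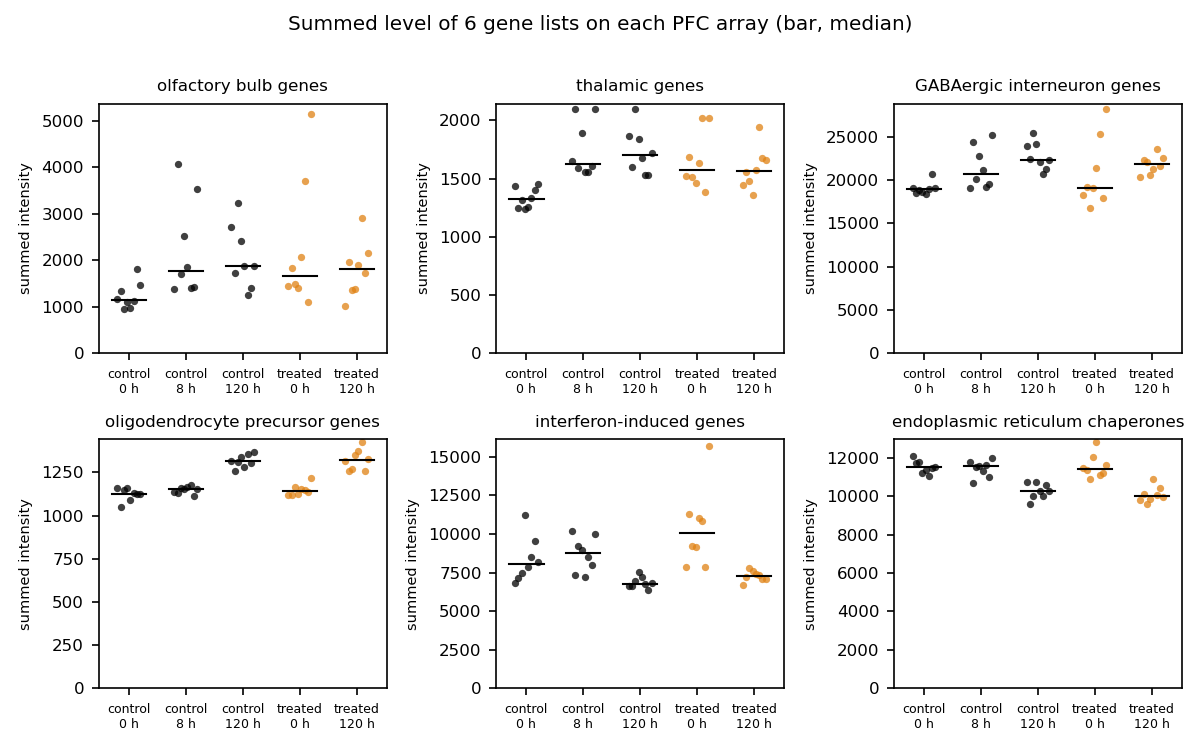
Summed intensity (vertical axis, from 0) of 6 gene lists on each PFC array, by group (control at 0, 8 and 120 h, treated at 0 and 120 h), with a bar at the median of 8 arrays. Precursor and chaperone levels separate the control groups at 0 and 120 h, thalamic levels separate 0 h from both later control groups, and olfactory bulb levels overlap with single high arrays of up to 5152.4 in treated mice at 0 h.

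Gene lists of energy metabolism and translation had small shared shifts whose sign rested on the scaling. Of 69 oxidative phosphorylation subunits, 20 rose and 1 fell under quantile normalization, 13 rose and 26 fell under median scaling, and 2 rose and 51 fell without scaling. Of 66 mitochondrial ribosomal proteins the counts were 12 and 0, 7 and 21, and 0 and 53 in the same order, and of 56 cytosolic ribosomal proteins 12 and 2, 3 and 29, and 2 and 48. Ndufb2, a subunit of complex I, rose under all of these and had the largest rise of its list, from 7.76 to 8.03 (median 7.89) to 8.25 to 8.46 (median 8.33), without overlap (0.45, SE 0.04, adjusted p = 1.1e-06). Ndufb5, of the same complex, and Mrpl52, of the mitochondrial ribosome, rose by 0.36 (SE 0.05, adjusted p = 0.00012) and 0.28 (SE 0.05, adjusted p = 0.00093), but without scaling they were at 0.09 and 0.01 and did not pass. Rpl19, of the cytosolic ribosome, which rose by 0.27 (SE 0.05, adjusted p = 0.0014), was at -0.05 without scaling.

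Genes of channels and receptors were called in both directions. Of 48 potassium channel genes 5 rose (10.4%) and 8 fell (16.7%), not far from the 12.8% and 10.7% of all genes. Under median scaling 21 rose and 12 fell. Kcna2, an axonal channel that shortens spikes, fell from 8.58 to 8.99 (median 8.76) to 8.13 to 8.57 (median 8.41), without overlap (-0.40, SE 0.07, adjusted p = 0.00063). Of 12 glutamate receptor genes 2 rose and 4 fell, but 4 rose and 3 fell under median scaling. The AMPA receptor subunits Gria3 and Gria1 fell by 0.40 (SE 0.09, adjusted p = 0.0031) and 0.35 (SE 0.09, adjusted p = 0.0069), with overlap, and 2 of 3 and 3 of 3 of their probes passed. Of 44 Rab GTPases 4 rose (9.09%) and 11 fell (25%). Of 20 cytosolic heat shock genes 2 rose and 2 fell (10% each), near the shares over all genes.

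The same interval was measured in separate mice that had breathed ethanol, with their own arrays at both times. As in control mice, fewer probes were detected at 120 h, 13474 to 13921 against 14355 to 14833 at 0 h, with no overlap. What part this array difference had in the changes shared by treated and control mice was not tested. In treated mice 3050 of 12835 probes passed (23.8%), 1658 higher (12.9%) and 1392 lower (10.8%), where the ethanol effect at 0 h enters too. The difference between treated and control mice was called for 80 probes (0.623%), 28 higher (0.218%) and 52 lower (0.405%). Counted with 1 probe for each gene, 13.9% were higher and 10.9% lower in treated mice. Of the interferon-induced genes 11 of 15 fell in treated mice as well, with Gbp2 at -1.25 (adjusted p = 0.017), and of the chaperones 8 of 14, with Pdia4 at -0.30 (adjusted p = 0.0029). Etnppl was at -1.36, Gstm1 at -0.99, Bcas1 at 0.70 and Gpr17 at 0.72, and none of these differed between treated and control mice (adjusted p from 0.16 to 0.92), which does not show that they were equal. Glucocorticoid-induced genes fell in 17 of 22 cases in treated mice.

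Among clock outputs the 2 courses differed. Dbp rose by 0.36 in control mice and fell by 0.24 in treated mice (adjusted p = 0.00098), a difference of -0.60 (SE 0.09, adjusted p = 8.8e-05). Ciart rose by 0.34 and fell by 0.22, a difference of -0.56 (SE 0.09, adjusted p = 0.00076). Enpp6, which rose by 0.37 in control mice, was at 0.07 in treated mice, a difference of -0.30 (SE 0.06, adjusted p = 0.0084). Slc17a6 was at -0.17 in treated mice (difference -0.71, SE 0.15, adjusted p = 0.013), and Gadd45g at -0.09 (difference -0.43, SE 0.10, adjusted p = 0.033). Calb2, of the interneuron list, and Cdhr1, of the bulb list, were at -0.14 and -0.32 in treated mice, where the level at 0 h was spread widely, and their differences from control mice, -1.26 and -1.46, did not pass (adjusted p = 0.20 and 0.21). None of the 6 bulb genes passed in treated mice.

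**Figure D5:**
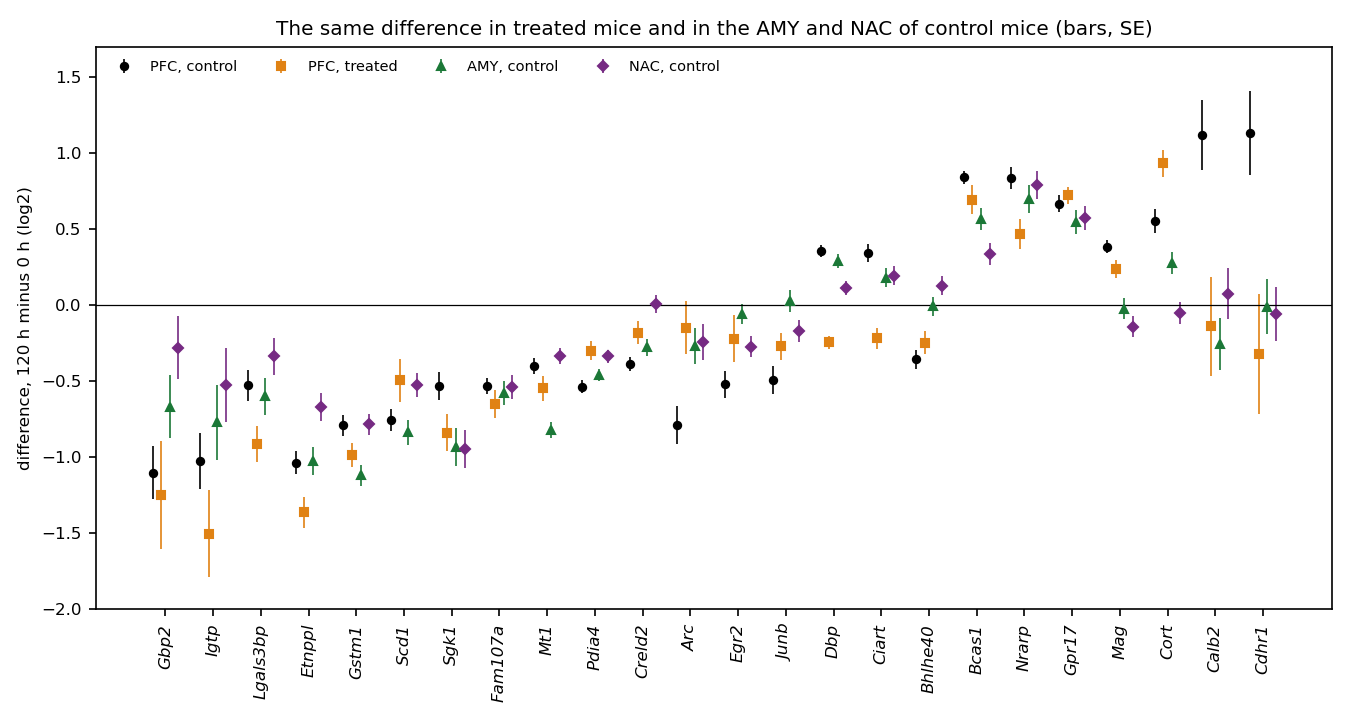
Difference between 120 h and 0 h (log2, vertical axis) with its SE for 24 genes in the PFC of control mice, the PFC of treated mice, and the amygdala and nucleus accumbens of control mice. Interferon-induced genes, Etnppl and Gstm1 lie below 0 in all 4, Calb2 and Cdhr1 lie highest in the PFC of control mice, and Dbp and Ciart lie on opposite sides of 0 in control and treated PFC.

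The amygdala (AMY) and nucleus accumbens (NAC) of control mice, the same 16 mice by the numbers in the file headers, were measured at the same times. In 1 fit of 48 arrays of the 3 regions, over 12424 probes, 3471 passed in PFC (27.9%), 1317 in AMY (10.6%) and 686 in NAC (5.52%). The difference between regions was called for 1730 probes of PFC against AMY (13.9%) and 664 of PFC against NAC (5.34%), which became 2221 and 1054 with the mouse as a random block. Of 97 named genes measured in the 3 regions, 34 and 23 were called without the block and 38 and 32 with it, and the block lost none. Gstm1 fell by 1.12 in AMY, 0.33 more than in PFC (adjusted p = 0.017), and Mt1 fell by 0.82 there, 0.39 more (adjusted p = 0.00028). Etnppl was at -1.03 in AMY and -0.67 in NAC, Nupr1 at -0.76 and -0.53, Fam107a at -0.58 and -0.54, Sgk1 at -0.93 and -0.94, Dnajc3 at -0.37 and -0.37 and Gpr17 at 0.55 and 0.58, all called in both regions and none called different from PFC without the block. With it, Etnppl differed between PFC and NAC (adjusted p = 0.038). Gbp2 was at -0.67 in AMY (adjusted p = 0.032) and -0.28 in NAC (adjusted p = 0.47), and neither was called different from PFC without the block, while NAC was with it (adjusted p = 0.037).

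Of 16 immediate early genes measured in the 3 regions, 8 differed between PFC and AMY and 2 between PFC and NAC, Arc and, with the opposite sign, Gadd45g. Arc was at -0.27 in AMY and -0.24 in NAC, against which the PFC fall was larger by 0.52 (adjusted p = 0.025) and 0.55 (adjusted p = 0.037). Junb and Egr2 were at 0.03 and -0.06 in AMY, and differed from PFC by -0.52 (adjusted p = 0.00060) and -0.45 (adjusted p = 0.0013). The clock repressor Bhlhe40 was at -0.01 in AMY and 0.13 in NAC, and differed by -0.37 (adjusted p = 0.0039) and -0.50 (adjusted p = 0.00096). In the oligodendrocyte lineage, Bcas1 rose in all 3 regions, by 0.57 in AMY and 0.34 in NAC, less than in PFC for NAC (0.51, adjusted p = 0.0021) and short of the threshold for AMY (adjusted p = 0.059, and 0.032 with the block). Mag, at -0.02 in AMY and -0.14 in NAC, differed from PFC by 0.40 (adjusted p = 0.0039) and 0.52 (adjusted p = 0.0012). Cort, at 0.28 in AMY and -0.05 in NAC, differed from PFC in the NAC (0.61, adjusted p = 0.00063) and, with the block only, in the AMY (adjusted p = 0.038). Calb2 and Cdhr1 differed from PFC by 1.39 and 1.15 in AMY and by 1.06 and 1.20 in NAC, and the bulb genes that were measured in the 3 regions, 4 of 6, differed in both.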

How the data were processed

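Total RNA of punched mouse brain was hybridized to Illumina MouseRef-8 arrays. The authors deposited non-normalized probe intensities with a detection p-value for each intensity, and a table of processed log2 values. The latter the authors made by a detection filter, variance stabilization (lumi), quantile normalization and removal of outlying values by Grubbs' test, and here they served only as an alternative. A probe entered when over 80% of the 48 PFC arrays had its deposited detection p-value at 0.05 or below, which left 12835 of 25697, and log2 intensities were quantile normalized over these arrays, since the variance stabilization was not at hand. Arrays of 3 regions were normalized together for comparisons between regions.

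Groups came from the labels for tissue, treatment and time, and columns were matched by the group in their names. Differences were tested with the moderated test of limma 3.58.1 in R 4.3.3, two-sided, with Benjamini-Hochberg adjustment over all probes tested and a threshold of 0.05. The test was checked on simulated data. The number of arrays, 8 a group, limits the precision, and p-values measure the spread between mice. Gene names came from the annotation of the platform, which gave 12081 probes 1 symbol. Of the 754 others, 210 were called and none was named. For 31 genes, probes were called in opposite directions.

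Members and lists were chosen with earlier results of these data known. Named were the 12 largest rises and 12 largest falls, the 6 smallest p-values, and in each list up to 4 risen and 4 fallen members in order of p. Members said to be named after their values were seen fall outside this rule. A list member was represented by its probe of highest mean level. Promoter sequences are from RefSeq. Alternatives changed the normalization, filter, arrays, blocks and covariates.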

Additional observations from a re-analysis of the deposited data

Results flagged for a closer look

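Single mice stood apart from the other 7 of their group, with a gap to the nearest mouse that was wide for the range of the group (Dixon's criterion), in 22 cases among the named genes. Chance gives about 1 such case in 20 groups, and each of the 101 named genes was examined at both times. Cases in the same mouse are not independent of each other. The interferon-related genes were highest in mouse 26 at 0 h, at 9.309 for Irgm2 (next mouse 8.428), 9.67 for Igtp (8.646), 8.354 for Psmb9 (7.596), 7.547 for Rsad2 (7.303), 8.837 for Gbp3 (8.133) and 8.385 for Oasl2 (7.812). The same mouse was lowest for Nr1d2, at 8.298 (8.527). Mouse 18 at 0 h was lowest for Mfge8, at 8.905 (9.69), and Hes5, at 6.798 (7.042), and highest for Sult1a1, at 9.381 (8.841), Mobp, at 9.648 (8.518), and Plin4, at 8.192 (7.406). Mouse 50 at 0 h was highest for Nrarp, at 8.367 (7.872), Ly6g6e, at 8.421 (7.617), and Th, at 7.566 (7.117). At 0 h, Chac1 was lowest in mouse 58, at 8.238 (8.481), and Cort in mouse 66, at 7.594 (7.814). At 120 h, Cort was highest and Slc1a3 lowest in mouse 16, at 8.897 (8.52) and 12.64 (12.81). Xlr4a was lowest in mouse 72, at 7.404 (8.025), Mrpl52 highest in mouse 8, at 9.469 (9.252), and Ifi27 lowest in mouse 64, at 9.914 (10.02).

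The difference between 120 and 0 h itself differed between treated and control mice, by limma's interaction test, for 5 named genes, all lower in treated mice. The values were -0.3 for Enpp6, -0.601 for Dbp, -0.708 for Slc17a6, -0.56 for Ciart and -0.426 for Gadd45g.

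Named genes also differed between regions, by the same kind of test. PFC minus AMY was above 0 for genes of oligodendrocytes, Notch, bulb, thalamus and interneurons, at 0.404 for Mag, 0.238 for Notch1, 1.39 for Calb2, 1.15 for Cdhr1, 0.321 for Sp8, 0.366 for Dcx, 0.435 for Th, 0.443 for Dlx1, 0.678 for Reln, 0.341 for Slc32a1, 0.221 for Npy, 0.754 for Slc17a6, 0.453 for Ntng1, 0.282 for Cacna1g and 0.371 for Tcf7l2. It was also above 0 for Trh, at 0.637, Rgma, at 0.261, Gstm1, at 0.332, Mt1, at 0.393, Txn1, at 0.303, Gadd45g, at 0.334, Ndufb2, at 0.345, Mrpl52, at 0.287, and Rpl19, at 0.323. It was below 0 for the activity genes Arc, at -0.522, Junb, at -0.519, Egr2, at -0.454, Egr4, at -0.336, Dusp6, at -0.229, and Fosb, at -0.226, and for Bhlhe40, at -0.365, Npas2, at -0.281, Pdia3, at -0.316, and Gria3, at -0.42.

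PFC minus NAC was above 0 at 0.514 for Bcas1, 0.388 for Enpp6, 0.524 for Mag, 1.06 for Calb2, 1.2 for Cdhr1, 0.375 for Sp8, 0.333 for Dcx, 0.36 for Th, 0.43 for Dlx1, 0.514 for Reln, 0.607 for Cort, 0.274 for Npy, 0.479 for Ntng1, 0.714 for Trh, 0.837 for Ly6g6e, 0.252 for Dbp, 0.355 for Gadd45g and 0.245 for Rpl19. It was below 0 at -0.549 for Arc, -0.499 for Bhlhe40, -0.194 for Pdia4, -0.391 for Creld2 and -0.35 for Kcna2.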

How the results depend on the processing

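The count of 2999 probes between 120 and 0 h in control mice depended on the scaling, becoming 7048 (3813 higher, 3235 lower) with median scaling and 7661 (176 higher, 7485 lower) without normalization. It was 932 (439 higher, 493 lower) in the last 4 columns of each group. The first 4 columns, the same number of arrays, gave 2073 (992 higher, 1081 lower). With the mean log2 level of the bulb genes as a covariate the count was 613. The cause of these differences was not tested. The other settings tried gave 2214 to 3154. Leaving out single mice gave 2489 (without mouse 8 at 120 h) to 2972. Of 101 named genes, all called, 93 still passed with median scaling, 76 without normalization and 59 with the bulb covariate. Under that covariate Doc2g was at -0.017, Trh at -0.052, Ly6g6e at -0.12, Sp8 at -0.016, Dlx1 at -0.040, Eomes at -0.031 and Th at -0.088. Without normalization Npy was at -0.080, Rpl19 at -0.053, Slc32a1 at -0.058, Pdgfra at -0.074, Nr1d2 at -0.043 and Gad1 at -0.11. In that setting 19 other named genes kept their sign but did not pass. They were Ly6g6e, Dbp, Mag, Chac1, Ndufb5, Ciart, Txn1, Mrpl52, Slc1a3, Dcx, Apoe, Gadd45g, Cacna1g, Notch1, Tcf7l2, Reln, P2ry12, Dlx1 and Th. Leaving out 1 mouse, 94 named genes passed in every fit, and 7 did not. Their highest adjusted p was 0.074 for Gad1 (lost without any of 11 mice), 0.072 for Th (9), 0.064 for Fos (9), 0.068 for Ly6g6e (7), 0.060 for Plin4 (6), 0.057 for Eomes (5) and 0.052 for Nr1d2 (1, mouse 8 at 120 h).

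The replicate block of the labels, possible only on the processed values of the authors, gave 2214 probes against 3079 without it, and 10 named genes no longer passed. Pairs of the same number correlated at -0.375 to 0.126, 2 of 8 above 0.1, so the numbers do not pair the mice. With median scaling and without normalization, treated mice gave 6423 and 6908 probes in place of 3050. Median scaling gave 4372 for PFC against AMY in place of 1730, and 6073 for PFC against NAC in place of 664, which became 1054 with the mouse as a random block. Treated minus control kept within 57 to 86. The settings on column order, the bulb covariate and the scaling of treated minus control were chosen after seeing the data.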
